A study of Homo sapiens with 12 samples.

Results

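The LINC genes are long intergenic non-coding RNA genes that carry a numbered symbol in place of a functional name. All genes of the count table whose current symbol consists of LINC and a number were taken as members, which gave 184 gene IDs of 14698 in the table. The 184 IDs carry 183 symbols, since LINC01605 stands for 2 IDs. GENCODE release 44 types 182 of them as lncRNA, and LINC01085 and LINC02210 as transcribed pseudogenes. The rule uses the name alone and none of the values below, but it was chosen with earlier results of these data known. Genes of low count had already been filtered out of the table.

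Long intergenic non-coding RNAs are transcribed by RNA polymerase II, capped, spliced and mostly polyadenylated like messenger RNAs, but they hold no long reading frame. Most are present at low levels and in few cell types, many start beside the promoter of a coding gene, and for the greater part of the numbered genes no function is known. PRMT5, the target of onametostat, places symmetric dimethyl marks on arginines of histones and of spliceosomal Sm proteins.

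The study exposed T98-G cells, an established line grown from a human glioblastoma, to onametostat at 1 µM or to its solvent DMSO at 0.1% for 48 h. Cells were kept in normoxia (20% oxygen) or in hypoxia (1% oxygen), and poly-A RNA was sequenced from 3 experiments of each of the 4 conditions. All conditions share one unmodified cell line, so no result extends to other glioblastoma lines. What separates the 3 experiments of a condition is given only as an experiment number, and the p-values measure the spread between these libraries.

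Libraries held 18154073 to 45977729 counts in 10 of 12 cases. The exceptions were both onametostat in hypoxia, with 7641280 counts in library 2 and 403279 in library 3. The read totals after filtering that the study reports are lowest for these libraries, but of the same order as the rest. Their shortfall in counts is thus larger than their shortfall in reads. At which step the reads were lost was not tested. One count equals 2.69 CPM (counts scaled to library size with TMM factors) in library 3 and 0.0212 to 0.133 CPM in the other libraries. Of the 184 LINC genes, 109 had a count of 0 in library 3, where 3 counts, or 8.07 CPM, is the upper limit that a count of 0 allows. For 161 of them the median of the other 11 libraries lay below that limit, so library 3 carries little information on most members. Its value is the last one wherever the libraries of that condition are listed. These limits cover counting error only. Of 8 markers of glioma lines, 7 were measured, at summed levels of 3919 to 4199 CPM in the DMSO libraries and 4294 to 4724 CPM in the onametostat libraries. The part of this difference in the results below was not tested. Markers of other cell types were sparse: 1 of 4 astrocyte, 2 of 4 neuron, 1 of 5 oligodendrocyte, 1 of 5 microglia, 1 of 4 endothelial and 0 of 3 epithelial markers were in the table. Genes known to rise in low oxygen did not rise by more than 1 on the log2 scale in the libraries labelled hypoxia. Over 19 such genes the change with DMSO ran from -0.47 for VEGFA to 0.53 for EGLN3 (median 0.04), and CA9 differed by 0.06. With onametostat it ran from -0.88 for MIR210HG to 0.15 for EGLN3 (median -0.18), and VEGFA and CA9 each had -0.62. Directions between oxygenations are therefore given for the libraries as labelled.

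To show what lies at the starts of members that fell or rose with onametostat, the RefSeq start regions of 8 genes are printed (GRCh38.p14, 250 bases before to 50 after the start, 5′ to 3′ on the gene's strand). They are all the members called in both oxygenations whose RefSeq and GENCODE starts lie within 100 bases of each other. Capitals mark CpG dinucleotides. The first 3 belong to genes that had lower levels with onametostat, LINC00842 (chr10:46398112-46398411), LINC01443 (chr18:14946017-14946316) and LINC01134 (chr1:3900154-3900453), all on the plus strand, and hold 31, 6 and 32 CpG.
LINC00842: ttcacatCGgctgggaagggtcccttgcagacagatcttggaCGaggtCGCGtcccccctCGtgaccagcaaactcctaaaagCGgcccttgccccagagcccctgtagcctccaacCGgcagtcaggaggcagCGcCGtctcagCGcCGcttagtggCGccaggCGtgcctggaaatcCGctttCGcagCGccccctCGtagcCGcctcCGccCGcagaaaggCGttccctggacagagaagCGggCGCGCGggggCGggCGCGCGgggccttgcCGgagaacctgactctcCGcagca
LINC01443: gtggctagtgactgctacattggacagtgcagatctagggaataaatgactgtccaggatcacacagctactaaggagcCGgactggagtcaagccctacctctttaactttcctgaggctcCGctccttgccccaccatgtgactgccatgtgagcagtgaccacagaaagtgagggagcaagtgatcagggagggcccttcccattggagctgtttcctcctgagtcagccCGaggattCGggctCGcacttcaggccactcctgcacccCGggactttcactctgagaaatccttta
LINC01134: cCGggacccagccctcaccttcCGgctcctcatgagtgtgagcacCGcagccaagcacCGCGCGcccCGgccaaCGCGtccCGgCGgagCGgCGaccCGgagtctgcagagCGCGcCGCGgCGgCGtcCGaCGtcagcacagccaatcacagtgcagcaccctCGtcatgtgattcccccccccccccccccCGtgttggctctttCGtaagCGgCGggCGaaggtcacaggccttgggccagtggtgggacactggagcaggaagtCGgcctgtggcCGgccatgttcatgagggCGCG
The last 5 belong to genes that had higher levels, LINC00641 (chr14:21206851-21207150, minus strand), LINC00622 (chr1:119599242-119599541, minus strand), LINC02104 (chr5:39520181-39520480, plus strand), LINC01775 (chr19:2462136-2462435, minus strand) and LINC00702 (chr10:4243863-4244162, minus strand), and hold 2, 3, 3, 23 and 0 CpG. Both directions thus include starts rich and poor in CpG.
LINC00641: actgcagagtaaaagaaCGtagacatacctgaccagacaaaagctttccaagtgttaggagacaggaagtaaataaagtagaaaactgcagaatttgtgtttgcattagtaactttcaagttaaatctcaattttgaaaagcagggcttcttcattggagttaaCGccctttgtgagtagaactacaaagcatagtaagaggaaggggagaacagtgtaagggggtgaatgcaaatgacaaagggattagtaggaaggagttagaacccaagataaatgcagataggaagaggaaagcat
LINC00622: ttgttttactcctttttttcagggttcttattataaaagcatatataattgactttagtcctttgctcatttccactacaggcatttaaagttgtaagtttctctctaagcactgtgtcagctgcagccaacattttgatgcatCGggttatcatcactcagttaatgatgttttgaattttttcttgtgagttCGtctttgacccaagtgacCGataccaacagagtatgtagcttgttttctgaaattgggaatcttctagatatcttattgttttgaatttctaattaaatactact
LINC02104: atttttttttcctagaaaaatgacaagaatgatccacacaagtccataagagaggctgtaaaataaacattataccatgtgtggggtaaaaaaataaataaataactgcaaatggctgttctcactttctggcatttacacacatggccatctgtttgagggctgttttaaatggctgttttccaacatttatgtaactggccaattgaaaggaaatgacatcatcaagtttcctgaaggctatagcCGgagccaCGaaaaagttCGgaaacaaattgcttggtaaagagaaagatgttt
LINC01775: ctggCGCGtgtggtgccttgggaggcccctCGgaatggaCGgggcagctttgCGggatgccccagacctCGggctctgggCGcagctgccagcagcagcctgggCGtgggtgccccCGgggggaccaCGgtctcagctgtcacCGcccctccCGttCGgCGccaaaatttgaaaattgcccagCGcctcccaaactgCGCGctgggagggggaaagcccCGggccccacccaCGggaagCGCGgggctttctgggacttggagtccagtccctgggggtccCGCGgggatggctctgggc
LINC00702: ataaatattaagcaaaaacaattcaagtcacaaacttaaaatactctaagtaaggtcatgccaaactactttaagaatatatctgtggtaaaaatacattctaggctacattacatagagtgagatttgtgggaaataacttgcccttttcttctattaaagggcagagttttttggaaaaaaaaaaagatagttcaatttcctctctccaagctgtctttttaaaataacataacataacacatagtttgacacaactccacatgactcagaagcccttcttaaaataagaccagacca

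The 184 genes were weakly expressed. Their median levels over the 12 libraries ran from 0.292 to 97.1 CPM with a median of 1.3, against 20.8 CPM over all genes. The average log2 CPM was below 1 in 111 of them and below 0 in 67. Together they took 0.0859% to 0.0888% of the counts in the 6 DMSO libraries, 0.0692% to 0.0716% with onametostat in normoxia, and 0.0669%, 0.0676% and 0.0508% in libraries 1 to 3 of onametostat in hypoxia. Every onametostat library thus lay below every DMSO library, also without library 3.

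Per kilobase of exonic length, LINC00942 (chr12:1500525-1504424, plus strand) stood first of the 10 genes with the highest median CPM, at a median level of 43.9 CPM per kb. It was followed by LINC01224 at 9.94 and LINC00205 at 7.53 CPM per kb. LINC00839, LINC00665, LINC02984, LINC00667 and LINC02693 ran from 3.59 down to 1.36 CPM per kb, and LINC00511 and LINC00662, whose annotated exons are the longest of the 10, lay at 0.661 and 0.459 CPM per kb. The most abundant member did not pass the test with onametostat. LINC00942 measured 97.9, 103.0 and 97.4 CPM with DMSO and 91.5, 95.6 and 90.2 CPM with onametostat in normoxia, a log2 difference of -0.11 ± 0.0538 (SE, adjusted p = 0.103 by edgeR's quasi-likelihood test).

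Onametostat was compared with DMSO in each oxygenation to ask which transcripts change when PRMT5 is inhibited. A gene was called when edgeR's quasi-likelihood test gave a Benjamini-Hochberg adjusted p under 0.05 over all 14698 genes and the log2 fold change exceeded 1 in size. In normoxia 12 LINC genes were called higher and 29 lower, or 6.52% and 15.8% of the members, against 1.76% and 4.35% of all genes. In hypoxia 7 were higher and 39 lower, or 3.8% and 21.2%, against 2.08% and 5.44% of all genes. Without library 1 of onametostat in hypoxia, which leaves that condition its 2 libraries of lowest total, the hypoxia counts were 4 higher and 19 lower. Without library 3 they were 6 and 39. By limma voom 8 were higher and 26 lower in hypoxia, of which 6 and 25 were also called by edgeR. Lower calls outnumbered higher ones in both. The median log2 fold change of the LINC genes was -0.23 in normoxia and -0.35 in hypoxia, and -0.01 over all genes in each.

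Low counts give larger fold changes, so the counts were also read by level. Among the 73 LINC genes whose average log2 CPM reached 1, 8 were called lower and 1 higher in normoxia (11% and 1.37%, against 2.78% and 0.681% of all genes at that level), and 14 lower and 2 higher in hypoxia (19.2% and 2.74%, against 3.45% and 0.902%). Of the 111 genes below that level, 21 were lower and 11 higher in normoxia (18.9% and 9.91%, against 10.6% and 6.08%), and 25 lower and 5 higher in hypoxia (22.5% and 4.5%, against 13.4% and 6.75%). The 1620 lncRNA genes with other kinds of name had 11.3% lower and 5.06% higher in normoxia and 15% lower and 6.05% higher in hypoxia. Whether LINC genes differ from these classes was not tested, and within a class the genes were not matched by level.

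**Figure D1:**
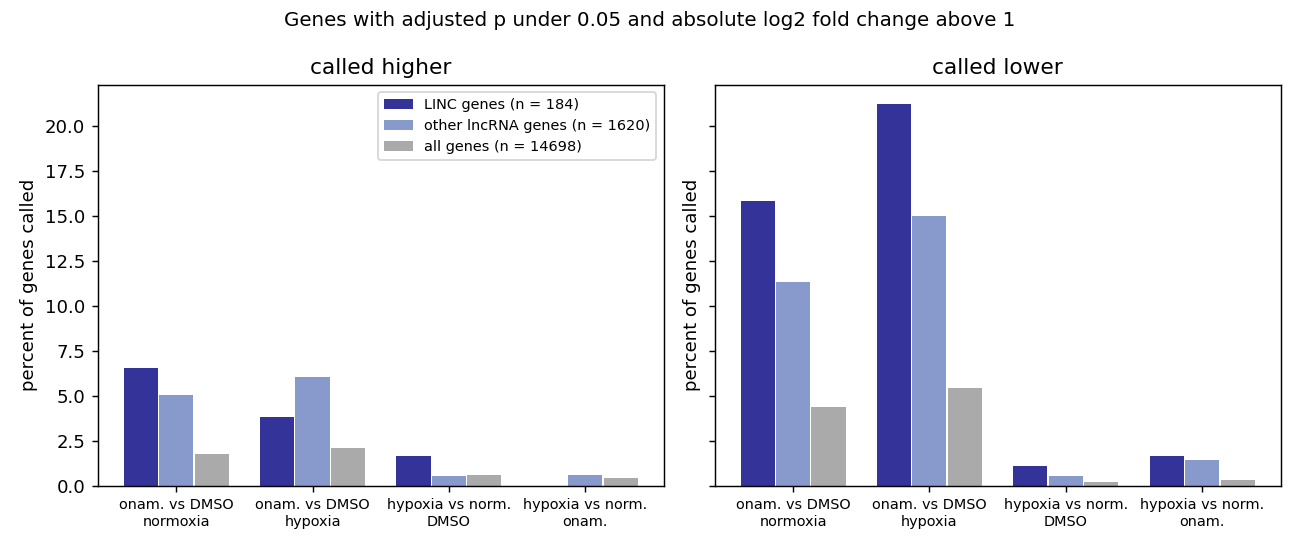
Percent of genes called higher (left) or lower (right) in each of 4 comparisons, for 184 LINC genes, 1620 other lncRNA genes and all 14698 genes; onam. stands for onametostat. With onametostat in hypoxia 21.2% of LINC genes were lower against 5.44% of all genes, while both oxygenation comparisons stay below 2% for LINC genes in each direction.

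The comparisons in normoxia and hypoxia share no library. Lower in both were 16 genes, or 8.7% of the members against 2.93% of all genes and 7.35% of the 1620 other lncRNA genes. This is 55.2% of the 29 and 41.0% of the 39, while over all genes the same shares were 67.3% and 53.8%. The 16 were LINC00106, LINC00342, LINC00638, LINC00667, LINC00842, LINC00939, LINC01117, LINC01134, LINC01443, LINC01711, LINC01948, LINC02245, LINC02593, LINC02605, LINC02904 and LINC02984. Higher in both were 6 genes, or 3.26% against 1.03% of all genes and 3.15% of the other lncRNA genes. This is 6 of the 12 in normoxia and 85.7% of the 7 in hypoxia (58.3% and 49.5% over all genes). The 6 were LINC00622, LINC00641, LINC00702, LINC01775, LINC02104 and LINC02246. Of 65 genes called in either oxygenation, 60 had fold changes of one sign in both, and LINC00115, LINC00539, LINC01271, LINC01275 and LINC01424 did not. Of these, LINC00539 lost its hypoxia call without library 3 of DMSO (-1.16) or library 1 or 2 of onametostat (-1.50 and -1.34), and LINC01275 lost it without library 1 of onametostat (-1.06). Some shared calls rest on single libraries. LINC01443 (-1.05 and -1.26) lost its call in normoxia without library 3 of DMSO (-0.95) or library 2 or 3 of onametostat (-0.93 and -0.85) and in hypoxia without library 1 of onametostat (-0.81). LINC01117 lost it in normoxia without library 3 of DMSO (-0.92) or of onametostat (-0.75). Dropping library 1 of onametostat in hypoxia ended the hypoxia calls of LINC01775 (0.68) and LINC02104 (adjusted p = 0.0511). The normoxia call of LINC02104 became 0.98 without library 3 of DMSO or library 1 of onametostat. LINC00939 (-1.28 and -2.05) kept both calls whichever library was left out. Across the 184 genes the fold changes of the oxygenations correlated with Pearson's r = 0.75, and across the 73 of higher level with r = 0.90. Genes are not independent replicates, and all points share the same libraries.

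**Figure D2:**
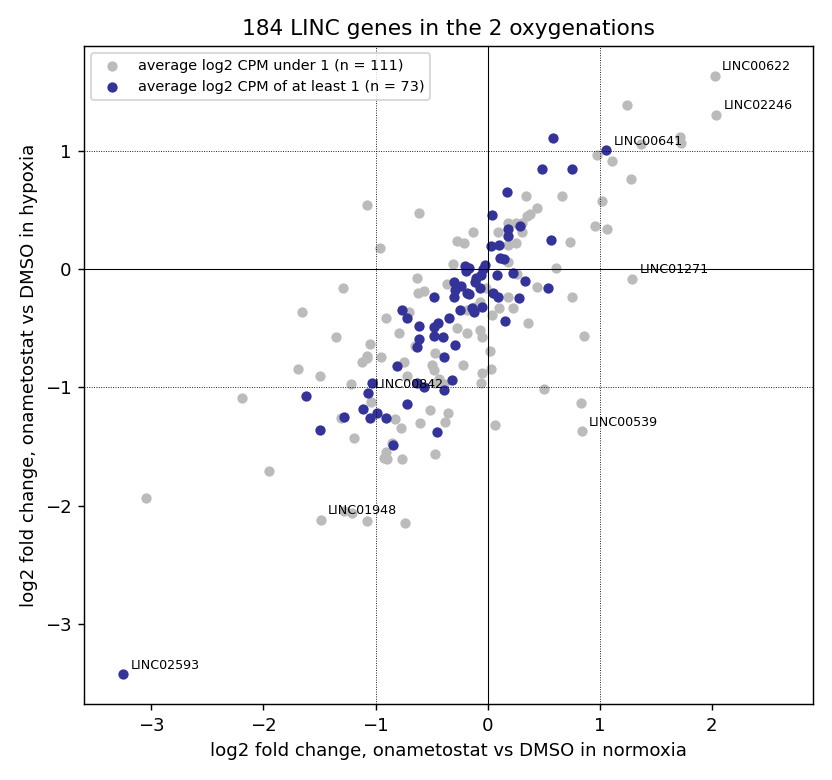
Log2 fold change of onametostat vs DMSO in normoxia (x axis) and in hypoxia (y axis), 1 point per LINC gene. Dotted lines mark a log2 fold change of 1 in size. LINC02593 lies alone at the lower left (-3.25 and -3.43), and the 73 genes whose average log2 CPM reached 1 lie closer to a line than the 111 weaker ones.

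Among the genes that fell, LINC02593 (chr1:916865-921016, minus strand, 1 exon) had the largest fold change in both oxygenations, with 16.1, 16.4 and 22.3 CPM against 2.16, 1.75 and 1.95 CPM in normoxia. In hypoxia it measured 21.8, 25 and 25.6 CPM with DMSO and 2.51, 1.73 and 0.0 CPM with onametostat. The groups did not overlap, and library 3 held 0 counts of it. The fold changes were -3.25 ± 0.154 (adjusted p = 4.73e-11) and -3.43 ± 0.197 (adjusted p = 6.93e-10). The nearest measured coding gene, SAMD11, encodes a protein with a SAM domain and starts 2907 bases from it on the opposite strand. SAMD11 fell from 29.7 ± 1.54 to 12.2 ± 0.986 CPM in normoxia (mean ± SD, n = 3) and from 35.2 ± 1.74 to 15.8 ± 2.73 CPM in hypoxia. Its log2 fold changes of -1.29 ± 0.0739 and -1.31 ± 0.0896 were smaller in size than those of LINC02593.

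Several well measured members fell in both oxygenations. LINC02984 (chr8:53493523-53524336, minus strand) measured 23.9, 22.5 and 22.3 CPM with DMSO and 8.96, 8.78 and 10.7 CPM with onametostat in normoxia, and 20.0, 23.2 and 21.9 against 8.87, 9.43 and 13.5 CPM in hypoxia. The groups did not overlap, and the log2 fold changes were -1.28 ± 0.0848 and -1.25 ± 0.108 (adjusted p = 1.83e-09 and 6.43e-08). LINC00667 (chr18:5237826-5290608, plus strand), a gene with published work in several cancers, measured 26.5, 28.5 and 27.6 against 12.7, 12.9 and 12.7 CPM in normoxia and 26.3, 28.0 and 30.1 against 13.0, 11.7 and 8.07 CPM in hypoxia. All onametostat libraries lay below all DMSO libraries, and the log2 fold changes were -1.11 ± 0.0707 and -1.18 ± 0.088. LINC00667 shares 523 exonic bases with ZBTB14, a zinc finger transcription factor gene on the opposite strand that changed by -0.66 and -0.69. The methods state default counting settings, under which reads from the shared bases would be counted for neither gene.

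LINC00842, whose CpG-dense start is shown first above, measured 12.2, 10.5 and 11.6 CPM with DMSO and 6.03, 5.11 and 5.34 CPM with onametostat in normoxia. In hypoxia the values were 13.8, 11.8 and 12.3 against 6.03, 6.11 and 5.38 CPM. All 6 onametostat libraries lay at 6.11 CPM or below and all 6 DMSO libraries at 10.5 CPM or above, and library 3 lay among the others although its value rests on 2 counts. The log2 fold changes were -1.07 ± 0.0939 and -1.05 ± 0.118 (adjusted p = 5.44e-08 and 1.27e-06), and the latter became -0.99 without library 1 of DMSO in hypoxia, just short of the threshold. LINC02904 (chr8:143039209-143060684, plus strand) measured 6.53, 4.98 and 5.2 against 1.44, 2.11 and 2.09 CPM in normoxia, and 4.32, 5.86 and 4.93 against 1.93, 2.13 and 2.69 CPM in hypoxia, with log2 fold changes of -1.50 and -1.36.

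**Figure D3:**
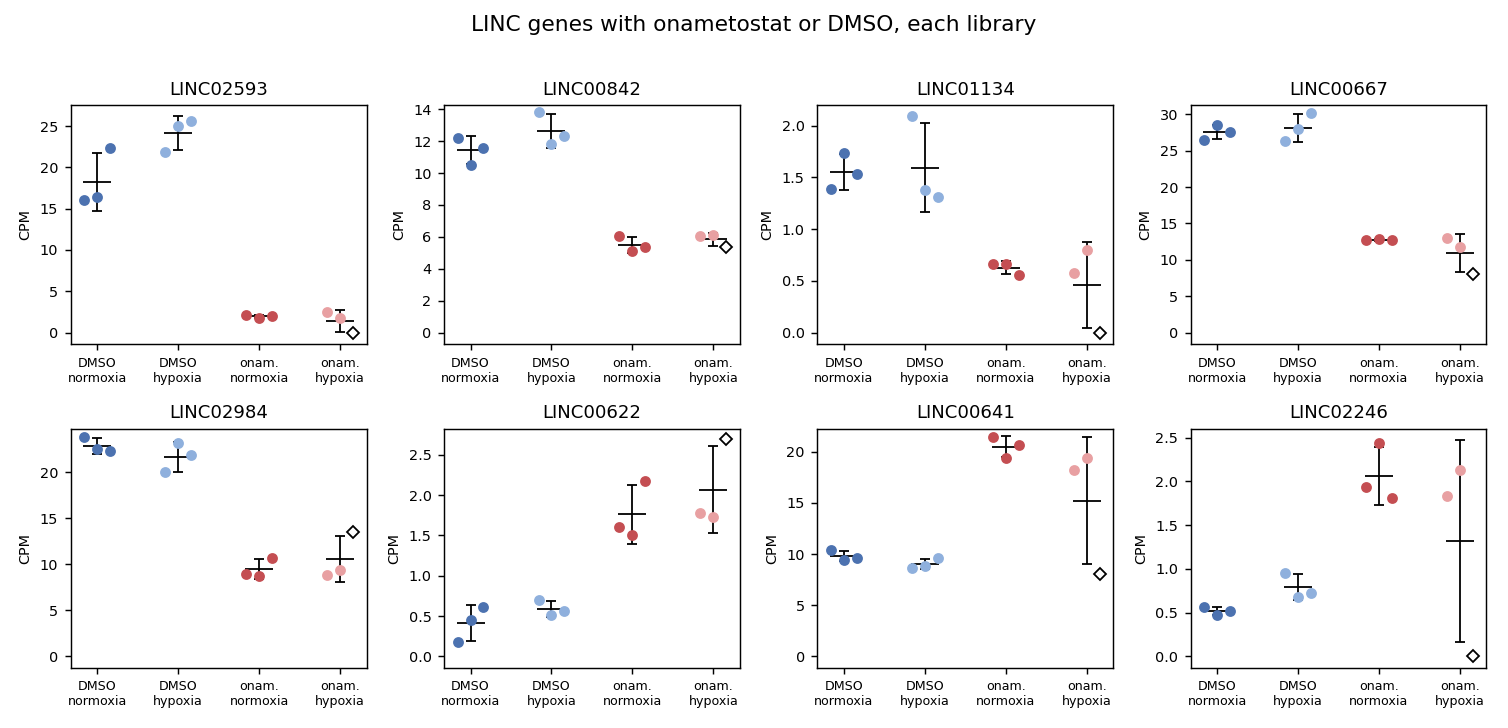
CPM of 8 LINC genes in each library (points), with mean and SD of 3 (bars), in the 4 conditions; the open diamond is library 3 of onametostat in hypoxia, which held 403279 counts. In the first 5 panels both onametostat groups lie below both DMSO groups, and in the last 3 above them, except that library 3 falls below the DMSO values for LINC00641 and LINC02246.

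Weaker genes of the same direction were less certain in hypoxia. LINC01134, which starts 54 bases from the coding gene C1orf174 on the opposite strand, measured 1.39, 1.74 and 1.53 against 0.664, 0.663 and 0.557 CPM in normoxia and 2.09, 1.38 and 1.31 against 0.579, 0.797 and 0.0 CPM in hypoxia. Its log2 fold changes were -1.31 ± 0.239 and -1.26 ± 0.329 (adjusted p = 1.71e-04 and 0.00387), the latter with an adjusted p of 0.16 without library 1 of onametostat in hypoxia. C1orf174, across the same start region, changed by 0.32 and 0.43. LINC00106 (chrX:1396427-1399402, in the pseudoautosomal region) had a fold change of -2.19 ± 0.271 in normoxia and -1.09 ± 0.317 in hypoxia. LINC00342 had -1.62 ± 0.228 and -1.07 ± 0.259, and LINC00638 had -1.95 ± 0.229 and -1.71 ± 0.337. All 3 had a count of 0 in library 3. When library 1 of onametostat in hypoxia was dropped, the adjusted p in hypoxia of these 3 genes became 0.117, 0.0585 and 0.0855, and with library 1 of DMSO in hypoxia dropped the changes of LINC00106 and LINC00342 became -0.92 and -0.86. LINC01948 (-1.49 and -2.12) and LINC02605 (-1.19 and -1.43) kept their calls in hypoxia when any one library was left out, while LINC02605 in normoxia became -0.87 without library 2 of onametostat. Both had a count of 0 in library 3. LINC01711, a 1-exon gene of low level on the list of studied LINC genes, fell from 1.31, 0.81 and 1.18 to 0.166, 0.071 and 0.186 CPM in normoxia, a log2 fold change of -3.05 ± 0.42, and by 1.94 ± 0.487 on the log2 scale in hypoxia, where it measured 1.0, 1.02 and 1.18 against 0.386, 0.0 and 0.0 CPM.

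Other genes passed the thresholds in 1 oxygenation, and the test of the difference between the effects called none of them. In hypoxia LINC01569, LINC01081, LINC00910, LINC01588, LINC00920 and LINC00886 were lower, with log2 fold changes of -1.61, -1.49, -1.38, -1.30, -1.29 and -1.26, against -0.76, -0.84, -0.45, -0.60, -0.38 and -0.91 in normoxia. All 6 had a count of 0 in library 3. LINC01081 measured 2.88, 3.23 and 3.21 CPM with DMSO and 1.16, 1.06 and 0.0 CPM with onametostat in hypoxia, with an adjusted p of 1.38e-05. Leaving out library 1 of onametostat in hypoxia ended the calls of LINC01569 (adjusted p = 0.0618), LINC00920 (0.0582) and LINC00886 (-0.84, adjusted p = 0.0714). In normoxia LINC01270 was lower at -1.35 ± 0.258 (-0.57 ± 0.312 in hypoxia), and LINC00689 at -1.12 ± 0.274 (-0.78 ± 0.36), the latter at -0.90 without library 1 of onametostat in normoxia.

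Among the genes that rose, LINC00641 (chr14:21200079-21206900, minus strand), studied in several cancers including glioma, was the only one called in both oxygenations whose average log2 CPM reached 1. It measured 10.4, 9.45 and 9.61 CPM with DMSO and 21.4, 19.4 and 20.7 CPM with onametostat in normoxia, and 8.68, 8.88 and 9.6 against 18.2, 19.4 and 8.07 CPM in hypoxia. In normoxia the groups were far apart. In hypoxia library 3, with 3 counts, fell below the DMSO values. The log2 fold changes were 1.06 ± 0.0828 (adjusted p = 1.36e-08) and 1.01 ± 0.0985 (adjusted p = 2.41e-07). The latter sits at the threshold and lost its call, just below 1, without library 1 or 2 of DMSO or library 2 of onametostat in hypoxia.

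LINC00622 (chr1:119597702-119599271, minus strand, 1 exon) measured 0.174, 0.452 and 0.612 CPM with DMSO and 1.6, 1.51 and 2.18 CPM with onametostat in normoxia. In hypoxia it measured 0.698, 0.51 and 0.557 against 1.78, 1.73 and 2.69 CPM, the last value being 1 count. The groups did not overlap, and the log2 fold changes were 2.03 ± 0.279 and 1.64 ± 0.318 (adjusted p = 8.94e-06 and 3.54e-04). LINC02246 (chr21:14824254-14918552, minus strand) rose from 0.566, 0.476 and 0.524 to 1.94, 2.44 and 1.81 CPM in normoxia, by 2.04 ± 0.226, and by 1.31 ± 0.263 in hypoxia, where library 3 held 0 counts. It shares 431 exonic bases with an unnamed lncRNA gene, ENSG00000235609, on the same strand, which rose by 1.78 ± 0.113 and 1.82 ± 0.121. LINC02057 was higher in normoxia only by the thresholds, at 1.11 ± 0.291 (0.92 ± 0.382, adjusted p = 0.0525, in hypoxia), and dropped to 0.93 without library 2 of DMSO and to 0.98 without library 2 of onametostat. LINC02966 was higher in hypoxia, at 2.75, 2.04 and 2.12 against 5.21, 3.99 and 5.38 CPM. Its log2 fold change of 1.11 ± 0.179 became 0.86 without library 1 of onametostat in hypoxia, and it was 0.58 ± 0.162 in normoxia.

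Of the 10 members of highest level, LINC02984 and LINC00667 were called and the other 8 were not in either oxygenation. LINC00205, which starts 137 bases from the O-fucosyltransferase gene POFUT2 on the opposite strand, measured 68.3, 69.0 and 76.5 CPM with DMSO and 47.5, 44.8 and 45.8 CPM with onametostat in normoxia. In hypoxia it measured 67.4, 72.8 and 72.8 against 35.7, 38.3 and 29.6 CPM. The groups did not overlap, and the differences of -0.63 ± 0.0505 and -0.96 ± 0.0624 passed the test (adjusted p = 1.72e-08 and 2.43e-09) but not the fold threshold. POFUT2 rose over the same contrasts by 0.50 ± 0.0391 and 0.55 ± 0.0433. LINC00205 also had the smallest adjusted p of the LINC genes in the test of whether the effect of onametostat differs between oxygenations, 0.0734 for a difference of -0.33 ± 0.0802. LINC00665 (0.29 and 0.37) and LINC00839 (0.18 and 0.34) were higher with an adjusted p under 0.05 in both, and LINC00662 (-0.44 and -0.45) was lower.

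Of a list of 64 LINC genes with published work in glioma or other cancers, 33 were measured. In each oxygenation 1 was higher and 6 were lower. In normoxia 6.52% of all 184 LINC genes were higher and 15.8% lower, against 1.76% and 4.35% of all genes. In hypoxia these shares were 3.8% and 21.2%, against 2.08% and 5.44%. Whether the studied genes differ from the other LINC genes was not tested. The medians of the 33 were -0.34 in normoxia and -0.41 in hypoxia, against -0.01 over all genes. LINC00641 was the higher one in both. LINC00667, LINC01134 and LINC01711 were lower in both, LINC00513 (-1.29), LINC00689 and LINC02282 (-1.08) in normoxia, and LINC00467 (-1.02), LINC00707 (-1.19) and LINC00963 (-1.22) in hypoxia. LINC00963 had a log2 fold change of -0.99 ± 0.108 in normoxia, next to the threshold, with 12.8, 15.1 and 13.9 against 7.97, 6.11 and 7.52 CPM. Single libraries ended the calls of LINC00513 (adjusted p = 0.0734 without library 2 of DMSO), LINC02282 (-0.95 without library 2 of onametostat, and just short of the threshold without library 1), LINC00467 (-0.95 without library 2 of DMSO and -0.85 without library 1 of onametostat) and LINC00707 (-0.93 without library 3 of DMSO, adjusted p = 0.155 and 0.0501 without library 1 or 2 of onametostat). In library 3, LINC00707 had a count of 0, and LINC00467 had 3 counts, or 8.07 CPM, among its DMSO values of 7.24, 8.41 and 7.59 CPM and above libraries 1 and 2 at 3.62 and 4.12 CPM. LINC01116 (-0.39 and -0.74), LINC01094 (-0.81 and -0.82) and LINC01278 (-0.48 and -0.56) had an adjusted p under 0.05 in both without reaching the fold threshold. Of 45 long non-coding RNAs with other kinds of name, 36 were measured: 3 were lower in normoxia and 6 in hypoxia, with medians of -0.10 and -0.04. Over all genes 4.35% and 5.44% were lower, and over the 1620 other lncRNA genes 11.3% and 15%. NEAT1, which scaffolds nuclear paraspeckles, was lower at -1.61 and -1.28.

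Members were set beside their neighbours in GENCODE (GRCh38). Of the 184 genes, 55 overlap another measured gene, 36 of them in exons and 33 of these on the opposite strand. The default counting settings that the methods state ignore strand and drop reads that hit both genes. The nearest measured coding gene lay at a median distance of 20498 bases. Of the 29 LINC genes lower in normoxia, the nearest coding gene was also called lower for 3 (LINC02593 with SAMD11, LINC00689 with VIPR2, LINC01424 with UBE2G2), and of the 39 in hypoxia for 3 (LINC02593 and LINC00115 with SAMD11, LINC00886 with LEKR1). Those are 10.3% and 7.69%, and the nearest coding gene was lower beside 8 and 9 of all 184 LINC genes (4.35% and 4.89%). This difference was not tested. The call of LINC00115 was lost with library 1 of onametostat in hypoxia dropped (-0.46), with library 3 dropped (-1.11, adjusted p = 0.0533) and with library 3 of DMSO in hypoxia dropped (-0.90), and its call between oxygenations is given below. No nearest coding gene was called in the other direction, and none was called beside a higher LINC gene. Over all 184 LINC genes the nearest coding gene was called higher beside 0 in normoxia and 1 in hypoxia (0.543%), so such calls were rare beside any member. VIPR2, a receptor of vasoactive intestinal peptide, overlaps LINC00689 by 2021 exonic bases and fell by 2.04 ± 0.167 on the log2 scale in normoxia. LINC01270 and LINC01271 overlap by 1719 exonic bases on opposite strands and were called in opposite directions in normoxia, at -1.35 ± 0.258 and 1.29 ± 0.447. The call of LINC01271, at 0.087, 0.333 and 0.306 against 0.719, 0.521 and 0.789 CPM, was lost without library 1 of DMSO (adjusted p = 0.0668) or with library 3 of onametostat dropped (0.0565).

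In all, 11 LINC genes start within 2000 bases of a measured coding gene that runs the other way. Beside LINC00205 and LINC01134, whose partners had fold changes of the other sign, LINC02245 was lower at -1.21 and -2.06 and its partner CEP68, a centrosomal protein gene, had -0.76 and -0.88. The call of LINC02245 in hypoxia was lost without library 1 of onametostat (adjusted p = 0.155). LINC01424 starts 57 bases from UBE2G2, a ubiquitin-conjugating enzyme gene of endoplasmic reticulum-associated degradation. In normoxia both were lower, at -1.08 ± 0.294 and -1.09 ± 0.0624, and in hypoxia LINC01424 had 0.55 ± 0.458 and UBE2G2 -0.67 ± 0.0712. LINC01424 lost its normoxia call without library 1 of DMSO (-0.97) and without library 2 or 3 of onametostat (-0.94 and -0.99). Members with 1 exon block were lower in 5 of 24 cases in normoxia and 7 of 24 in hypoxia (20.8% and 29.2%). Those with more were lower in 24 and 32 of 160 (15.0% and 20.0%), against 4.35% and 5.44% of all genes. The members were not matched by level, and the difference was not tested.

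A RefSeq start region was found for 131 of the 184 IDs. For some members it lies far from the GENCODE start, by 142499 bases in LINC01117 and 123779 in LINC02245, both lower with onametostat. Such regions need not be where the counted transcripts start. Over these 131 regions the median was 9.0 CpG in 300 bases, against 14 over all 35116 start regions. Genes lower with onametostat had a median of 13.5 CpG in normoxia (n = 20) and 14 in hypoxia (n = 23), genes higher had 3.0 in each (n = 10 and 6), and genes not called had 9.0 and 7.5. At least 10 CpG were found in 12 of the 20 lower and 2 of the 10 higher genes in normoxia, and in 47.5% of the 101 not called. In hypoxia they were found in 15 of the 23 lower and 2 of the 6 higher genes, and in 44.1% of the 102 not called. Over all start regions the share was 56.4%. With only the 74 regions whose start lies within 100 bases of the GENCODE start, the normoxia medians were 16 (n = 9) for lower, 3.0 (n = 6) for higher and 10.0 (n = 59) for the others. The hypoxia medians were 26.5 (n = 10), 3.0 (n = 6) and 9.5 (n = 58). Over the 131 the groups overlap widely, from 2 to 38 CpG in the lower and 0 to 25 in the higher genes in normoxia, and 1 to 43 and 0 to 23 in hypoxia. The number of genes is small, they were not matched by level, and the difference was not tested. The motif TATAAA, searched on both strands, was in 2 of the 20 lower and 2 of the 10 higher start regions in normoxia, and in 11.5% of all. Of the 8 printed regions, that of LINC00622 held it.

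**Figure D4:**
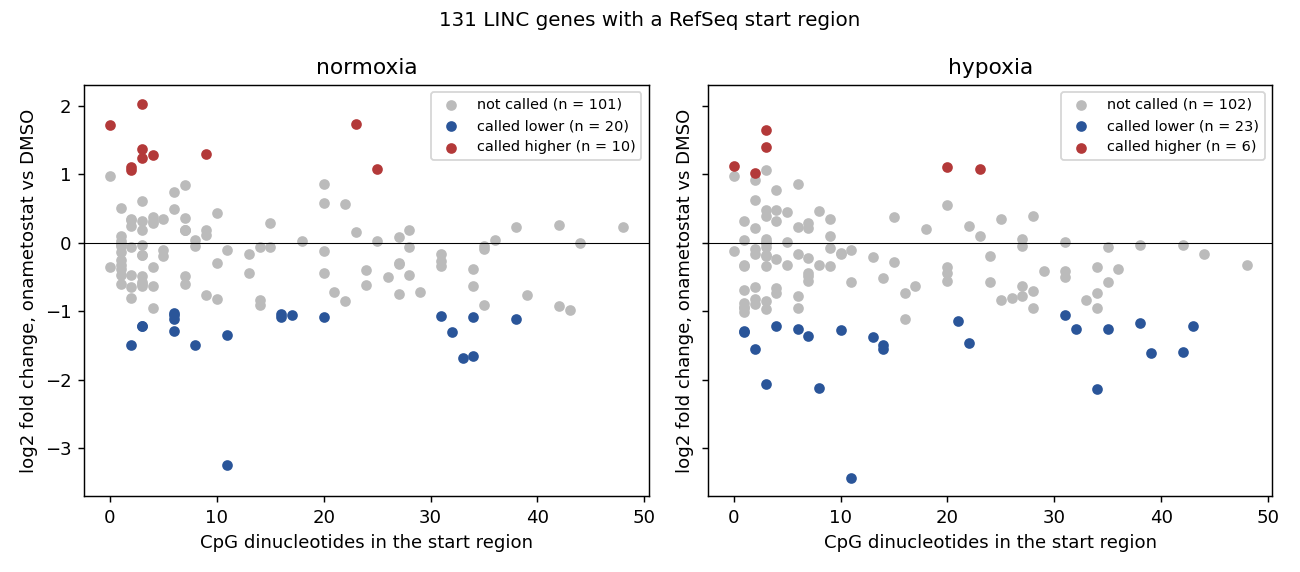
CpG dinucleotides in the 300-base RefSeq start region (x axis) and log2 fold change of onametostat vs DMSO (y axis) in normoxia (left) and hypoxia (right), 1 point per LINC gene with a region (131). Most higher genes lie at few CpG (median 3.0), while lower genes spread from 2 to 38 in normoxia. Of the 131 regions, 74 start within 100 bases of the GENCODE start.

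Hypoxia was compared with normoxia at each treatment. With DMSO 3 LINC genes were called higher and 2 lower, or 1.63% and 1.09% of the members, against 0.599% and 0.231% of all genes. All 5 had an average log2 CPM below 1, where 2.1% and 0.984% of all genes were called. The median log2 fold change was -0.01. LINC01915 (chr18:24534551-24708542, plus strand) measured 1.09, 1.05 and 0.874 CPM in normoxia and 1.83, 2.15 and 2.1 CPM in the libraries labelled hypoxia, without overlap. Its log2 fold change of 1.02 ± 0.174 (adjusted p = 3.82e-04) became 0.94 to 0.99 when library 3 of DMSO in normoxia, or 2 or 3 of DMSO in hypoxia, was dropped. With onametostat it measured 1.22, 0.852 and 0.974 in normoxia and 1.16, 1.06 and 0.0 CPM in hypoxia, a difference of 0.19 ± 0.277. The effect of oxygenation was not shown to differ between treatments (interaction -0.83 ± 0.324, adjusted p = 0.282).

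The other 4 were named after their values were seen. LINC02977 rose by 1.26 ± 0.294 and LINC02056 by 1.29 ± 0.28, from group means of 0.403 and 0.34 CPM to 0.944 and 0.881 CPM. LINC01424 changed by -1.50 ± 0.287, from 1.26, 1.05 and 0.917 to 0.349, 0.234 and 0.536 CPM, and LINC00519 by -1.01 ± 0.286. The call of LINC00519 was lost when library 1 of DMSO in normoxia was dropped (-0.89), and likewise for 1 or 3 of DMSO in hypoxia (-0.96 and -0.84). DESeq2 gave none of the 5 an adjusted p (92 of the 184 LINC genes had one), so it could not call them.

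With onametostat 3 LINC genes were lower (1.63%, against 0.313% of all genes) and none was higher (0.415% of all genes). All 3 had an average log2 CPM below 1, where 1.19% of all genes were lower and 1.15% higher. Of the other lncRNA genes 1.42% were lower and 0.617% higher. Positive changes at an unadjusted p under 0.05 numbered 10 by edgeR, 4 by DESeq2 and 17 by limma voom, which called 3. DESeq2 gave an adjusted p to 33 of the 184 in that comparison, and to none of the 3 lower genes. The 3 lower genes, also named after their values were seen, were LINC00115, LINC03033 and LINC00702. LINC00115 measured 1.11, 1.7 and 1.67 CPM in normoxia and 0.241, 0.531 and 0.0 CPM in hypoxia, a change of -2.27 ± 0.403 (adjusted p = 0.00149). LINC03033 changed by -1.63 ± 0.456, with a count of 0 in library 3. LINC00702 measured 1.05, 1.04 and 1.11 against 0.482, 0.399 and 2.69 CPM, so that library 3, with 1 count, lay above all others and the mean of the group was higher while the fitted change was -1.11 ± 0.346. With library 1 of onametostat in hypoxia dropped, all 3 calls were lost, with adjusted p of 0.149, 0.614 and 0.381. LINC03033 also lost its call without library 2 of onametostat in normoxia (adjusted p = 0.0625), and LINC00702 without library 1, 2 or 3 of onametostat in normoxia (0.0593, 0.0595 and 0.0643) or library 2 in hypoxia (0.114). LINC00702 was higher with onametostat than with DMSO in both oxygenations, by 1.72 ± 0.268 and 1.12 ± 0.432, but in hypoxia the adjusted p of 0.0467 became 0.0734 without library 3, 0.0571 without library 2 and 0.28 without library 1 of onametostat, and 0.106 and 0.0784 without library 2 or 3 of DMSO.

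**Figure D5:**
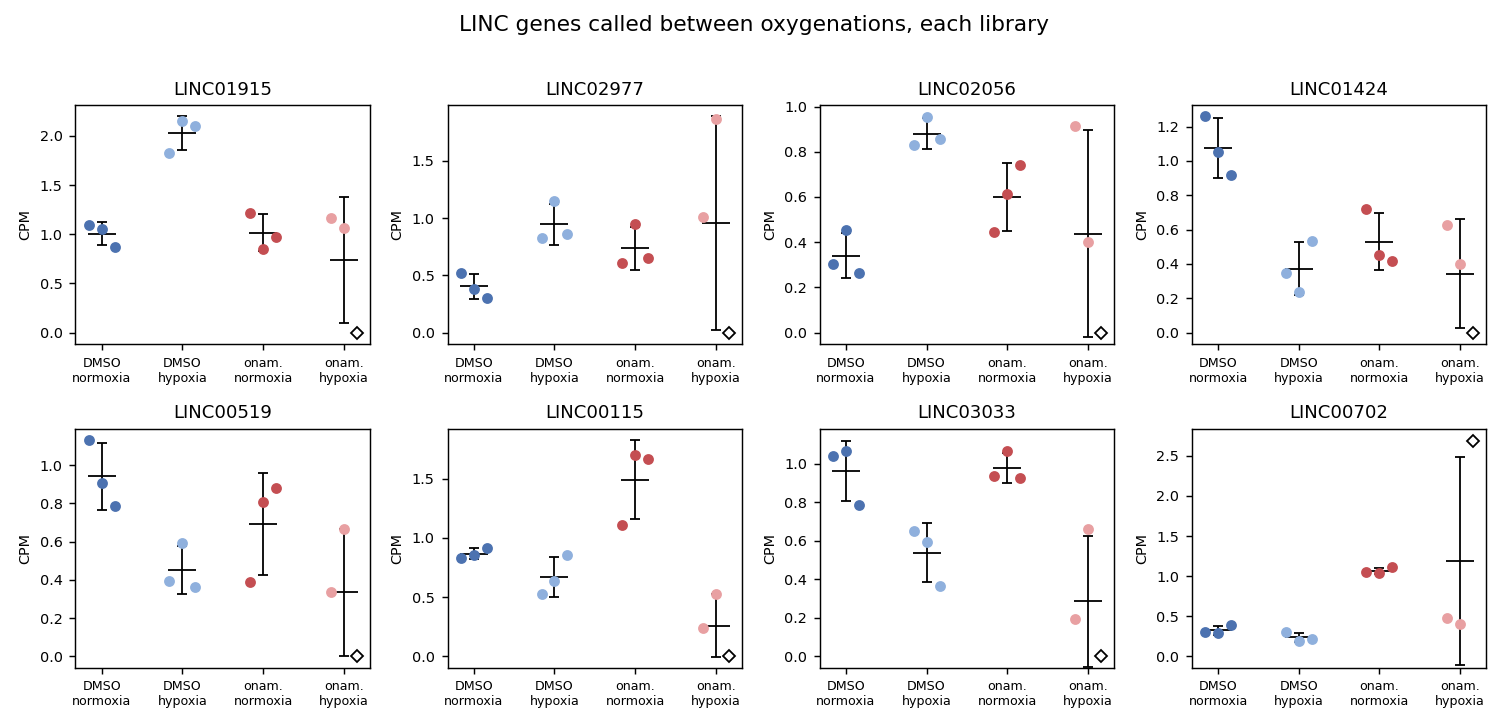
CPM of the 8 LINC genes called between oxygenations, in each library (points), with mean and SD of 3 (bars, drawn below 0 where the SD exceeds the mean); the open diamond is library 3 of onametostat in hypoxia. The first 5 were called with DMSO and the last 3 with onametostat, and all lie near 2 CPM or below in the other 11 libraries.

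The treatment effect was also tested for a difference between oxygenations, which no LINC gene passed by edgeR (22 at an unadjusted p under 0.05) or limma voom (22). DESeq2 gave an adjusted p to 22 of the 184 and called none of those (4 at an unadjusted p under 0.05). Over all genes 73 had an adjusted p under 0.05 by edgeR, and 3 were called with the fold threshold (0.0204%). In all, 70 of the 184 LINC genes (38.0%) were called in at least 1 of the 4 comparisons, against 10.3% of all genes and 28.1% of the other lncRNA genes.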

How the data were processed

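The authors sequenced poly-A libraries on a NextSeq 2000 and deposited 1 table of raw counts per gene, although it is called normalized in the labels. Reads had been aligned with STAR (2.7.10a per the submitters' processing notes, which name GRCh37, while the study's methods name GRCh38) and counted with featureCounts. The methods state its default settings, which ignore strand and drop reads that hit more than 1 gene. The labels and the methods differ on the RNA input. Gene symbols, types, exons and coordinates were taken from GENCODE release 44 (GRCh38) by gene ID, and 7 IDs had no entry. Library totals of 403279 to 45977729 counts set the precision. One edgeR 4.0.16 quasi-likelihood fit (R 4.3.3, TMM, no further filter) held all 12 libraries and 4 conditions, and p-values were adjusted over 14698 genes. SE stands for the standard error of the log2 fold change. The fit was also run on simulated data with 200 changed genes, and the share it recovered is not given here. Named genes were up to 12 called genes per direction and comparison with the largest fold changes among those with groups that did not overlap and an average log2 CPM of at least 0, the 10 of highest level, the list of studied LINC genes, and neighbours; others are named as chosen later, LINC00842, LINC00702, LINC01271 and LINC02245 among them. Members and lists were chosen with earlier results of these data known. The alternatives were RLE factors, library sizes alone, DESeq2 1.42.0, limma 3.58.1 voom, filters, a replicate block, the compared groups alone and leaving out libraries.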

Additional observations from a re-analysis of the deposited data

Results flagged for a closer look

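In 3 LINC genes all libraries moved up in one comparison and all moved down in its counterpart. LINC00888 changed by 0.41 ± 0.128 from normoxia to hypoxia with DMSO and by -0.20 ± 0.186 with onametostat. LINC00539 changed by 0.86 ± 0.29 with DMSO and by -1.34 ± 0.477 with onametostat. LINC01524 changed by 0.50 ± 0.312 with onametostat in normoxia and by -1.01 ± 0.517 in hypoxia. The differences themselves gave adjusted p of 0.254, 0.0864 and 0.295 in edgeR's quasi-likelihood test, so none passed. Each rests in part on library 3 of onametostat in hypoxia, where all 3 genes had a count of 0 and 8.07 CPM is the limit that this allows.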

How the results depend on the processing

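Of 100 single fold changes followed under 2010 alternative values, 2 changed sign, both of LINC01275 in normoxia, which was not called (0.07, with a range of -0.08 to 0.22 when one library was left out, negative without library 2 of DMSO or, at -0.04, library 1 of onametostat), while 117 values lost their call and 12 gained one, for LINC00963 in normoxia (down to -1.07) and LINC00205 in hypoxia (-1.01 and -1.03). Leaving out one library gave 10 to 13 higher and 24 to 31 lower LINC genes with onametostat in normoxia, 4 to 8 and 19 to 42 in hypoxia, 2 to 5 and 1 to 5 for hypoxia with DMSO, and 0 and 0 to 4 with onametostat. Dropping library 1 of onametostat in hypoxia leaves that condition its 2 libraries of lowest total. It gave the lowest counts in hypoxia, 4 and 19, which shared 3 and 17 genes with the full fit. Without library 3 they were 6 and 39, and without libraries 2 and 3 together also 6 and 39, a fit in which the lone library is assumed to vary like the other conditions. Keeping only genes whose average log2 CPM reached 0 gave 4 and 16 in normoxia, 4 and 26 in hypoxia, 1 and 0 with DMSO and 0 and 0 with onametostat, over 117 LINC genes. DESeq2 gave 9 and 23, 4 and 29, 0 and 0, and 0 and 0, with an adjusted p for 184, 173, 92 and 33 LINC genes. Limma voom gave 8 and 26 with onametostat in hypoxia and 3 and 1 for hypoxia with onametostat, and library sizes alone gave 1 lower with DMSO. With no fold threshold the counts were 26 and 70, 14 and 60, 15 and 16, and 2 and 8. The cause of these shifts was not tested.

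Deviations from the group means correlated at -0.0767 to 0.0718 between same-numbered experiments and at -0.107 to 0.0976 between differently numbered ones. Counting error weakens such correlations, so they cannot settle whether libraries of one number came from one shared experiment. The replicate block gave 12 and 30, 6 and 39, 3 and 2, and 1 and 4, of which 12 and 29, 6 and 35, 3 and 2, and 0 and 2 were calls of the fit without it. Among named genes, LINC00115, LINC00702 and LINC00707 lost their hypoxia calls under the block, and LINC00702 that between oxygenations. Depth limits most members, since 111 have an average log2 CPM below 1.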

Other observations

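MALAT1, a nuclear lncRNA that is abundant in most human cells, measured 0.0 to 2.64 CPM over the 12 libraries. Whether reads of it were lost at counting was not tested, so this range does not settle its level in these cells.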
